A study of Solanum lycopersicum with 24 samples.

Results

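The subject of this report is the set of transcription factor mRNAs that carried N1-methyladenosine (m1A) peaks in tomato fruit. A gene was a member when the authors' description of it held a transcription factor term (transcription factor, zinc finger, homeobox, bZIP, MYB, WRKY, MADS-box, bHLH or ethylene-responsive). Loci described with the word ubiquitin were left out, as were 5 named loci, most of them ripening or floral regulators. The rule found 25 genes among 1945 mRNA genes with a peak in any library. Only 974 of the 1945 genes had a description, so a gene without one could not be a member. Where a share of members called, gained or lost in the full lists stands beside all genes, the value over described genes is given too. Counts over all genes under altered settings are not split in this way. The label fits most members by description, but it also took in a subunit of the basal transcription machinery and 4 zinc finger genes of the CCCH or HIT type. Zinc fingers of the CCCH type often bind RNA.

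RNA was immunoprecipitated (IP) with an m1A antibody in fruit of the wild type Ailsa Craig (AC) and of the homozygous ethylene receptor mutant Never-ripe (Nr), which is in the AC background. Fruit was taken when mature green, at about 39 days post-anthesis, and 6 days after the breaker stage, when AC is red and Nr is orange. The 12 IP libraries form 4 groups of 3 biological replicates, named AC MG and AC Br+6 for green and red wild type and Nr G and Nr O for the mutant. G and O were read as green and orange, from the series design. The data are 1 list of peaks per library, with 108 to 854 mRNA peaks, and sequencing depth is unknown. AC Br+6 replicate 3 (854 peaks) and AC MG replicate 1 (688) stand apart from the other 10 lists, which hold 108 to 377. Of the fruit genes checked, ASR1 was called in 12 libraries, 2A11 in 9, E8 in 4 and PG2A in 3, while 0 seed marker genes and 3 green tissue marker genes were called anywhere.

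Transcription factors bind short DNA motifs and set which genes are read, and plant families such as MADS-box, NAC, AP2/ERF and MYB direct flower form, fruit ripening, hormone and stress responses. In tomato, ripening is started by a small set of such factors acting with ethylene. The methyl group of m1A sits on the base-pairing face of adenosine, so it interferes with Watson-Crick pairing and with reverse transcription. Below, a library calls a gene if its list places any peak in that gene, and fold enrichment is the peak caller's ratio of signal over its background, up to 50 in these lists. A fold enrichment of exactly 50 was listed for 351 of the 3852 mRNA peaks (9.11%), 4 of them in members, so such values are best read as 50 or more and have no order among themselves. A gene without a call may have no m1A or too little RNA to give a peak, and the lists cannot tell these apart. Nor can they tell fewer cells that express a gene from less RNA per cell.

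The 25 genes held 38 peaks in 35 gene-by-library calls. In the AC MG libraries 3, 4 and 1 of them were called, in replicate order. The AC Br+6 libraries had 1, 2 and 11. The Nr G libraries had 7, 2 and 4, and the Nr O libraries had 0, 0 and 0. Green wild-type fruit thus had 8 different members, red wild-type fruit 13, green mutant fruit 10 and orange mutant fruit 0. The library counts of the first 3 groups overlapped, and every Nr O library lay below them all.

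The lists differ in length, and the plot of members against described genes shows both. Members made up 2.06% ± 1.94 (SD, n = 3) of described called genes in AC MG libraries, 2.39% ± 0.871 in AC Br+6 and 3.11% ± 1.17 in Nr G. The lowest share outside Nr O was 0.862% (95% Clopper-Pearson interval 0.0218 to 4.71), in AC MG replicate 3, and the highest was 4.3% (1.18 to 10.6), in AC MG replicate 2. The Nr O libraries held only 28, 42 and 38 described genes. By the rule of 3 (3 divided by the number of genes), a count of 0 there allows shares of up to 10.7%, 7.14% and 7.89%. By the same rule, 0 of the 67 described genes called in any Nr O library allows up to 4.48%. Clopper-Pearson upper ends for the 3 libraries are wider, at 12.3%, 8.41% and 9.25%. These limits lie above the group means of the other groups, so a lower share in Nr O was not detectable at this list length. Intervals and limits cover counting error only.

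**Figure D1:**
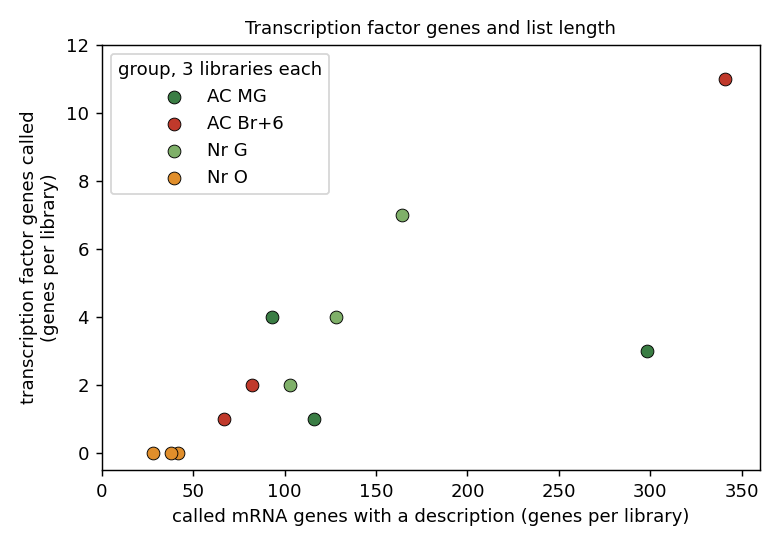
Transcription factor genes called in each IP library (vertical axis, genes) against all described mRNA genes called there (horizontal axis, genes), with 1 point per library and colour for the group. AC Br+6 replicate 3 has 11 of 341, AC MG replicate 1 has 3 of 298, and the Nr O libraries have 0 of 28, 42 and 38.

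Most members were called once. Of the 25 genes, 20 (80.0%) were called in 1 library, against 75.6% of all 1945 genes and 77.4% of the described ones. No member was called in more than 4 libraries, where 6.12% of all genes and 3.29% of described genes were called in 5 or more. Of the 20 single calls, 8 were in AC Br+6 replicate 3, 4 in Nr G replicate 1 and 3 in AC MG replicate 1. Without AC Br+6 replicate 3, 17 members remained, and without it and AC MG replicate 1, 14 did. Absence from Nr O was common to genes called so rarely, as 4.35% of the 942 described genes called in 1 to 4 libraries had a call there.

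**Figure D2:**
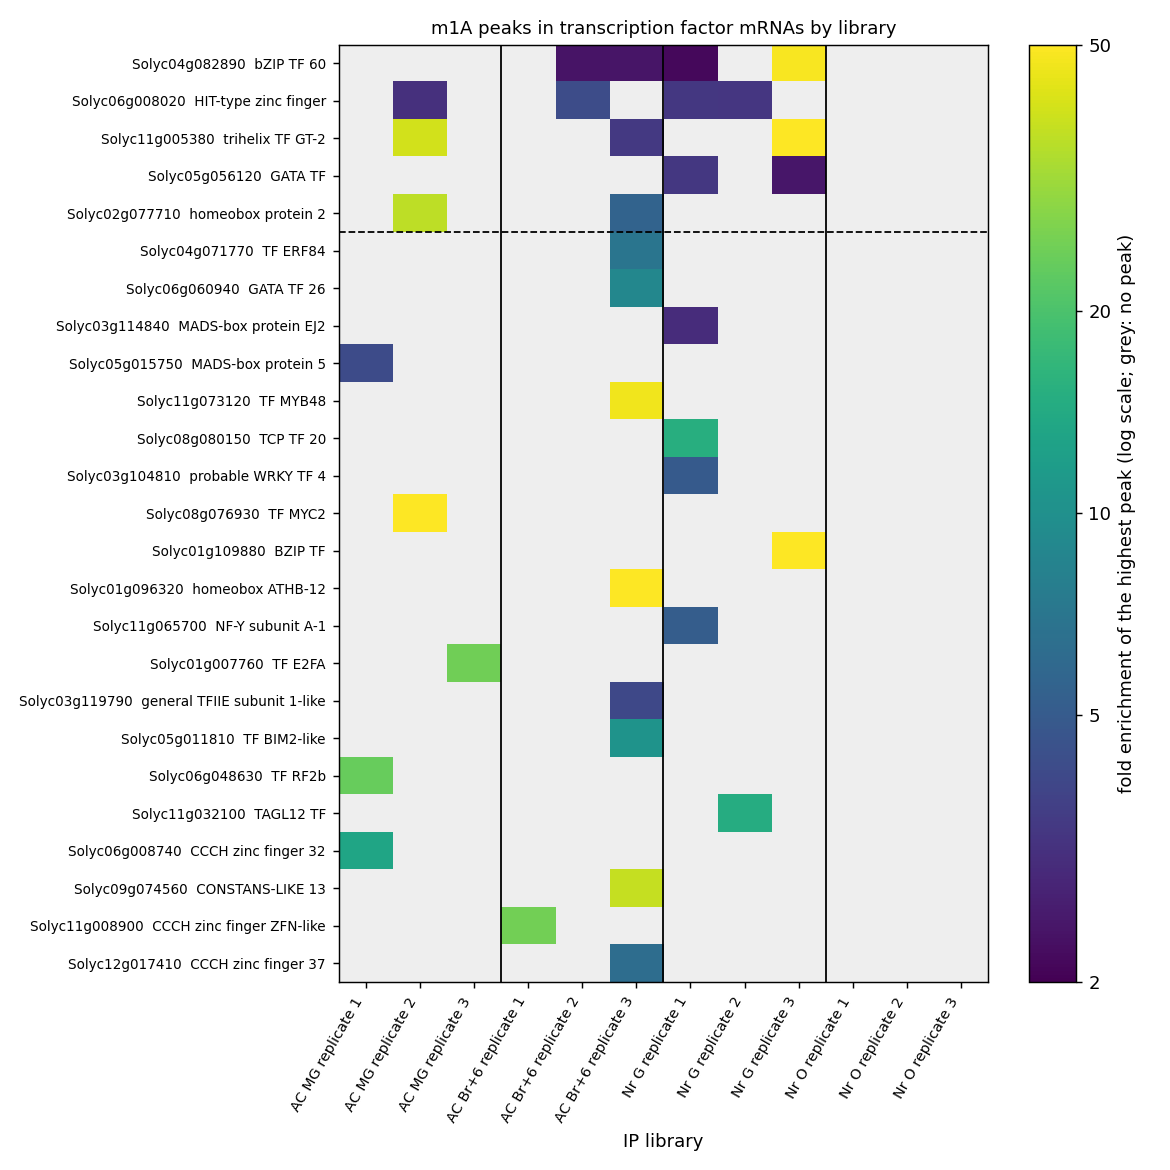
Highest fold enrichment (colour, log scale; grey for no peak) of each of the 25 transcription factor genes (rows) in each of the 12 IP libraries (columns). The 5 genes above the dashed line were called in 2 to 4 libraries, the 20 below it in 1, and the Nr O columns are empty.

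The bZIP transcription factor 60 gene (Solyc04g082890) was one of a pair of members called in 4 libraries. Its Arabidopsis namesake is an endoplasmic reticulum stress factor whose mRNA is spliced by IRE1. Its peaks lay on chromosome 4 between 66479363 and 66479695 in the SL3.00 assembly. Red wild-type and green mutant fruit each had a call in 2 of 3 libraries, and the other two groups had none. The fold enrichment was 2.38 in AC Br+6 replicate 2, 2.4 in AC Br+6 replicate 3, 2.13 in Nr G replicate 1 and 48.33 in Nr G replicate 3. The last value is 22.7 times the lowest, although the peaks of Nr G replicate 3 and AC Br+6 replicate 2 had the same start and end, 66479478 to 66479690. The peaks of AC Br+6 replicate 3 and Nr G replicate 1 covered that stretch and began 115 and 69 bases to its left. The peak score, minus 10 times log10 of the peak p-value, was 26.77 in AC Br+6 replicate 2 and 14.71 in AC Br+6 replicate 3. It was 14.15 in Nr G replicate 1 and 3100 in Nr G replicate 3. Over all lists, 1133 of the 3852 mRNA peaks had a score of 3100.

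The HIT-type zinc finger gene ZNHIT (Solyc06g008020, chromosome 6, 1863322 to 1863704) was also called in 4 libraries. In yeast and human, proteins with this finger help to assemble small nucleolar ribonucleoproteins or chromatin remodelling complexes. The fold enrichment was 3.13 in AC MG replicate 2, 4.24 in AC Br+6 replicate 2, 3.38 in Nr G replicate 1 and 3.34 in Nr G replicate 2. All 4 values were low and close together. The peak scores were low as well, 14.5 to 26.77, so these are marginal calls. The 4 peaks, 380 to 382 bases long, had the same boundaries to within 2 bases, and those of AC MG replicate 2 and Nr G replicate 2 were identical. The site was thus seen in both genotypes and, in the wild type, at both stages, and in no Nr O library.

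The trihelix factor GT-2 gene (Solyc11g005380, chromosome 11) had 1 call in each group but Nr O. Trihelix factors bind GT elements, first described in light-regulated plant promoters. Its peaks shared no base. The peak of Nr G replicate 3 (304284 to 304490) had a fold enrichment of 50. The peak of AC MG replicate 2 (304997 to 305281) had 40.31, and that of AC Br+6 replicate 3 (305698 to 306000) had 3.43. Gaps of 506 and 416 bases separated them, so the 3 calls mark 3 places in the gene.

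A GATA transcription factor gene (Solyc05g056120, chromosome 5, 66360599 to 66361143) had its only calls in green mutant fruit, in 2 libraries. GATA factors bind the motif they are named for, and some promote chloroplast development in Arabidopsis. The fold enrichment was 3.38 in Nr G replicate 1 and 2.43 in Nr G replicate 3, and the peaks overlapped by 83 bases. Their scores were low, 32.02 and 15.66. The homeobox protein 2 gene (Solyc02g077710, chromosome 2, 43162064 to 43162983) had a fold enrichment of 36.34 in AC MG replicate 2 and 5.6 in AC Br+6 replicate 3, with scores of 2584.77 and 24.85. Its peaks differed in size, with the first, of 273 bases, lying inside the second, of 920.

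**Figure D3:**
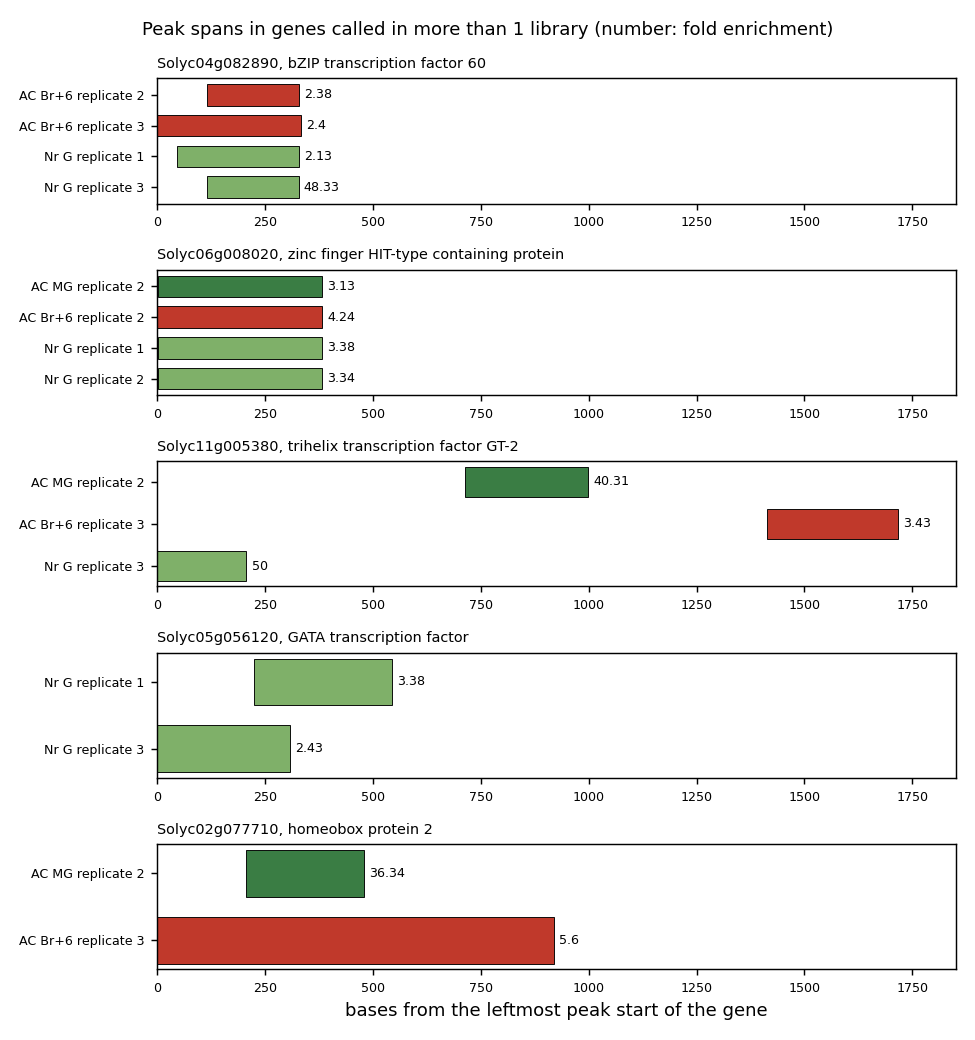
Peaks of the 5 genes called in 2 to 4 libraries, drawn to scale in bases from the leftmost peak start of each gene, with 1 bar per library, colour for the group and the fold enrichment beside each bar. The ZNHIT peaks coincide, the bZIP transcription factor 60 peaks share their right part, and the GT-2 peaks lie apart.

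With any shared base counted, 4 of these 5 genes had overlapping peaks in every pair of libraries that called them, against 51.5% of the 355 genes called in 2 to 4 libraries in all and 46.8% of the 188 described ones. When the overlap had to reach 50% of both peaks, bZIP transcription factor 60 and ZNHIT remained, 2 of 5, against 36.9% and 32.4%. No member had identical peaks in all its libraries, against 9.86% and 6.38%.

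Fold enrichment in these lists was set against each list's own peaks, since its scale was not shown to be comparable between lists. Of the 38 member peaks, 14 lay above the median fold enrichment of their own list. A member peak exceeded a median of 27.5% of the peaks of its list, 42.5% for the genes called once and 9.44% for the 5 recurring genes. The peaks of the recurring genes were thus mostly weak, the exceptions being bZIP transcription factor 60 and GT-2 in Nr G replicate 3 and GT-2 and homeobox protein 2 in AC MG replicate 2. Over all lists the median fold enrichment was 5.95 for member peaks (interquartile range 3.38 to 25.1), 14.4 for all 3852 mRNA peaks (5.5 to 34.0) and 13.2 for the 1673 peaks of described genes (5.26 to 30.4). It was 3.38 for the 15 peaks of the recurring members and 13.1 for the 960 peaks of all genes called in 2 to 4 libraries. These medians pool lists despite that limit of scale, and ZNHIT and bZIP transcription factor 60 gave 4 of the 15 peaks each. Member peaks had a median length of 240 bases, and all mRNA peaks had 198.

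**Figure D4:**
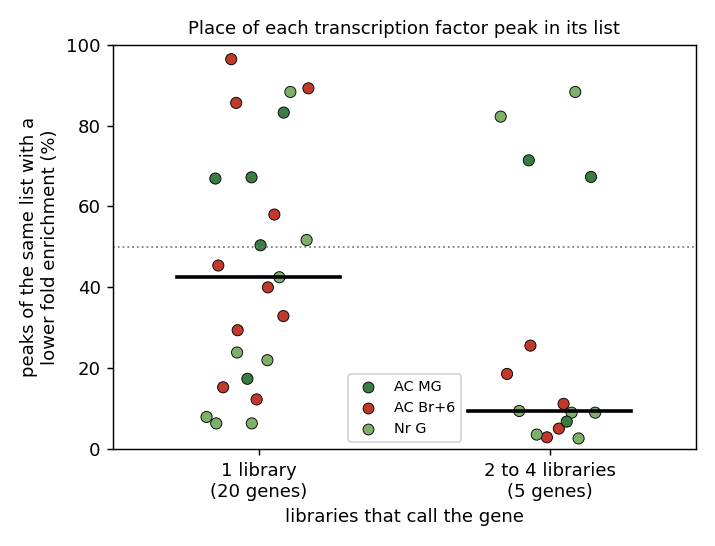
Percent of peaks of the same list with a lower fold enrichment (vertical axis) for each of the 38 transcription factor peaks, split by the number of libraries that called the gene, with bars at the medians of 42.5% and 9.44%. Of the 15 peaks in recurring genes, 4 lie above the median of their list.

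The other 20 members, called once each, are given below, ordered for reading by what they or their namesakes are known for. MYC2 (Solyc08g076930, chromosome 8, 60991966 to 60992195), the bHLH factor at the centre of jasmonate responses, had a fold enrichment of 50 in AC MG replicate 2. The homeobox gene ATHB-12 (Solyc01g096320, chromosome 1, 87265685 to 87265889), named for an Arabidopsis factor induced by water deficit and abscisic acid, had 50 in AC Br+6 replicate 3. ERF84, the only member described as ethylene-responsive (Solyc04g071770, chromosome 4, 58832726 to 58832999) had 6.97 in the same library. So did BIM2-like (Solyc05g011810, chromosome 5, 5045211 to 5045444), whose Arabidopsis relative works with brassinosteroid factors, at 10.4. WRKY transcription factor 4 (Solyc03g104810, chromosome 3, 44332810 to 44333099), of a family known for defence responses, had 4.98 in Nr G replicate 1.

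Many MADS-box factors set floral and fruit identity. EJ2 (Solyc03g114840, chromosome 3, 66201542 to 66204764), listed as MADS1 in RefSeq and of the SEPALLATA class, was called in Nr G replicate 1 with a pair of peaks 3154 bases apart, at 3.02 each. These peaks, of 57 and 12 bases, also had the same score, 79.51. Over all genes, 340 of 3493 calls had more than 1 peak, and in 2 of those 340 all peaks had the same fold enrichment and score. MADS-box protein 5 (Solyc05g015750, chromosome 5, 11903427 to 11903630), with the RefSeq synonym TM5, had 4.17 in AC MG replicate 1. TAGL12 (Solyc11g032100, chromosome 11, 25030755 to 25031052) had 14.71 in Nr G replicate 2. The ripening MADS-box gene RIN (Solyc05g012020) and the ripening NAC gene NOR (Solyc10g006880) were called in 0 of 12 libraries. Of the 5 loci left out of the set, Solyc02g077920 was called in 3 libraries and TAGL1 (Solyc07g055920) in 2, and the other 3 were called in 1 each.

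The next members include factors of growth and light response. E2FA (Solyc01g007760, chromosome 1, 1854972 to 1855024), which acts at the entry into DNA replication, had a fold enrichment of 25.02 in AC MG replicate 3. TCP20 (Solyc08g080150, chromosome 8, 63606306 to 63606554), of a family that governs cell proliferation, had 15.11 in Nr G replicate 1. CONSTANS-LIKE 13 (Solyc09g074560, chromosome 9, 66800258 to 66800459), of the B-box zinc fingers, had 37.73 in AC Br+6 replicate 3. In that library MYB48 (Solyc11g073120, chromosome 11, 56508196 to 56508375) had 46.87 and GATA transcription factor 26 (Solyc06g060940, chromosome 6, 39050959 to 39051258) had 8.92. The bZIP gene ZIP (Solyc01g109880, chromosome 1, 96638668 to 96638795) had 50 in Nr G replicate 3. RF2b (Solyc06g048630, chromosome 6, 31500583 to 31500861), named for a rice bZIP factor, had 23.61 in AC MG replicate 1. Nuclear factor Y subunit A-1 (Solyc11g065700, chromosome 11, 51528692 to 51530048), part of the complex that binds CCAAT boxes, had 5.16 and 3.2 for a pair of peaks in Nr G replicate 1.

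The remaining members are the CCCH zinc finger genes and the general factor, each called once. CCCH gene 32 (Solyc06g008740, chromosome 6, 2663254 to 2663346) had a fold enrichment of 13.19 in AC MG replicate 1. The ZFN-like CCCH gene (Solyc11g008900, chromosome 11, 3073607 to 3073852) had 25.07 in AC Br+6 replicate 1, and CCCH gene 37 (Solyc12g017410, chromosome 12, 6661899 to 6661976) had 6.29 in AC Br+6 replicate 3. The gene for subunit 1 of TFIIE (Solyc03g119790, chromosome 3, 69849380 to 69851475), a factor that recruits TFIIH to RNA polymerase II, had 3.54 and 4 for its pair of peaks in AC Br+6 replicate 3. Without these 4 genes and ZNHIT, 20 members were left, 4 of them called in more than 1 library. The members lay on 10 chromosomes, with 5 of 25 on chromosome 11, which held 6.79% of all called genes and 5.54% of the described ones. For 2 of the 38 peaks, those of E2FA and ATHB-12, a peak of another called gene lay within 10 kb in the same library. None of the 38 overlapped a circRNA or lncRNA peak of its library. Neither count was made for all mRNA peaks, so neither can be read as a trait of the members.

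Ripening of the wild type was compared as AC Br+6 against AC MG, a gene being gained or lost where 2 or 3 libraries of either group called it and none of the other group did. One member, bZIP transcription factor 60, was gained, which is 1 of the 18 members with a peak in these 6 libraries, against 1.33% of all such genes and 1.06% of the described ones. Only genes called in 2 or 3 AC Br+6 libraries could be gained. Of these, 14.8% of all genes and 21.1% of described ones were, and this gene was the only such member. No member was called in more than 1 AC MG library, so none could count as lost, as 1.87% of all and 1.73% of described genes did. The gain rests on the weak peaks in AC Br+6 replicates 2 and 3, and without either of these libraries the count was 0. That 0 was fixed by the rule, which still asked for 2 libraries. With every list shortened to its 108 strongest peaks, 0 members and 9 genes in all were gained, in place of 20, and 7 were lost, in place of 28.

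In Never-ripe, 3 members were lost between Nr G and Nr O, namely bZIP transcription factor 60, the GATA gene Solyc05g056120 and ZNHIT, out of 10 members with a peak, against 7.06% of all genes and 8.08% of the described ones. No member had a call in Nr O, so none could count as gained, as 0.666% of all and 0.557% of described genes did. Of the 150 genes of any kind called in 2 or 3 Nr G libraries, 53 (35.3%) were called in no Nr O library, and of the 54 described ones 29 (53.7%) were. The Nr O lists held 108 to 151 peaks and the Nr G lists 233 to 377. With lists of equal length the order of the counts turned over, since over all genes 9 instead of 53 were lost and 34 instead of 5 were gained, and 0 members were lost. Shortening drops only weaker peaks, and more of them from the Nr G lists. A gene weak in both groups can so become a gain, and these counts cannot settle the effect of list length. All but 1 of the Nr G peaks of these 3 members exceeded only 2.65% to 9.44% of their lists, so the 0 was fixed in advance. Without Nr G replicate 1 the count of lost members was 0 and that of all genes 11, and without Nr G replicate 3 these were 1 and 18. Without Nr G replicate 2, 2 members and 32 genes in all were lost. Each of the 3 members was called in exactly 2 Nr G libraries, so under the rule it had to drop out when either was left out.

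Between genotypes in green fruit, bZIP transcription factor 60 and the GATA gene were called in Nr G and not AC MG, 2 of 16 members with a peak, against 1.83% of all genes and 2.56% of the described ones. Among genes called in 2 or 3 Nr G libraries, this held for 2 of 3 members, 16.0% of all genes and 31.5% of described ones. The reverse could hold for no member, given their AC MG calls, and held for 3.2% of all and 2.56% of described genes. With lists of equal length these counts over all genes went from 24 to 6 and from 42 to 5, with 0 members in either. Without Nr G replicate 1 or 3 the count of 2 became 0, as the rule required, since these were the only 2 Nr G libraries that called either gene. Without AC MG replicate 2 the count became 3, as ZNHIT joined. In late fruit bZIP transcription factor 60 was called in AC Br+6 and not Nr O, 1 of 13 members against 4.18% of all genes and 3.01% of the described ones. Among genes called in 2 or 3 AC Br+6 libraries, where it was the only member, this held for 30.4% of all genes and 36.8% of described ones. The reverse, which no member could show, held for 0.204% of all and 0.215% of described genes. With lists of equal length the order turned over here too, from 41 to 9 genes called in AC Br+6 and not Nr O and from 2 to 23 for the reverse, with 0 members in either. Here too the shortening dropped weaker peaks, and more of them from the AC Br+6 lists, so these counts cannot settle the effect of list length. The member's call was also lost without AC Br+6 replicate 2 or 3, as the rule again required. The comparisons share libraries, so these calls of bZIP transcription factor 60 are not separate evidence.

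Stage and genotype were then tested over all 12 libraries, 6 against 6, for each of the 140 genes of the whole table called in 3 to 9 libraries, with a two-sided Fisher exact test and Benjamini-Hochberg adjustment over the 140. Of the 25 members 3 could be tested. ZNHIT was called in 3 of 6 green and 1 of 6 late libraries (exact p 0.545, adjusted p 1.0), and in 2 of 6 of each genotype (exact p 1.0). bZIP transcription factor 60 was called in 2 of 6 on either side of both tests (exact p 1.0). Its calls lay in red wild-type and green mutant fruit, a crossed pattern that balances out in both tests, so they could not show it. GT-2 was called in 2 of 6 green and 1 of 6 late, and in 2 of 6 AC and 1 of 6 Nr libraries (exact p 1.0 in both). No gene passed either test (0.0% of 140 for stage and 0.0% for genotype), and at an unadjusted p under 0.05 there were 0 genes for stage and 1 for genotype, not a member. A gene called in 4 libraries cannot go below an exact p of 0.0606, so these tests could not have called any member. The lowest exact p open to any gene, 0.00216, is too high for a single gene to pass adjustment over 140.

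Other genes of the transcription apparatus were matched by words in their descriptions. Of 13 genes matched for the general machinery and its co-regulators, 3 were called in more than 1 library, where 24.4% of all genes and 22.6% of described genes were. None of the 13 was gained or lost, a rule met by 0.204% to 7.06% of all genes, depending on the comparison. TFIID subunit 2 (Solyc03g119780) was called in 7 libraries at 1.77 to 5.65, namely 1 AC MG, 2 AC Br+6, 3 Nr G and 1 Nr O library. The word match also took in a chloroplast translocase gene, Solyc01g097310, which is unrelated, and PTI6 (Solyc06g082590), a DNA-binding factor of the ERF family, which had 10.49 in 1 Nr G library. Of 5 regulators described in other words, 1 was gained or lost, an auxin response factor gene (Solyc02g077560). It had calls in red wild-type fruit alone, in 2 libraries, at 2.52 and 2.91. The gene thus counted as gained in AC Br+6 against AC MG, as did 1.33% of all and 1.06% of described genes. It also counted as called in AC Br+6 and not Nr O, as did 4.18% of all and 3.01% of described genes. An auxin-responsive gene (Solyc04g076850) had 50 in 1 Nr G library. None of the 5 was called in Nr O, but among genes called in 1 to 4 libraries only 4.98% of all and 4.35% of described ones were.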

How the data were processed

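m1A immunoprecipitates of fruit RNA were sequenced beside input libraries; the 12 input libraries have no peak list and were not analysed here. Per the labels' protocols, RNA was cut into fragments, bound with an m1A antibody and treated with alkali. Cutadapt 1.9.3 and HISAT2 2.0.4 are listed in the submitters' processing notes. Peak names begin with MACS; how the caller was set, and against which control, is not given in the sources used here. The deposited fold enrichment, per the file headers, is a ratio; its highest value is 50. The deposited score is a scaled minus log10 p-value, going by its header. The authors' false discovery rate, in percent, reads 100 for all 3852 mRNA peaks and was not used.

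Genes were taken from transcript identifiers. List starts count from 0, as 102 of 434 circRNA peaks begin 1 base before their circle, so 1 was added. SL3.00 is named by a scaffold in the lists. All 25 gene numbers matched the RefSeq table (assembly SLM_r2.1), 24 with the same symbol. No sequence was read, and positions within exons or UTRs were not analysed here. Tests used Python 3.11.15 and SciPy 1.17.1. The code was tried on simulated calls with many genes called in all AC and no Nr libraries. That setting is unlike these data, so power was not measured. Named genes were members called in 2 or more libraries or gained or lost, then the strongest member of each remaining family; the other members are given to account for all. Members, lists and rules were chosen with earlier results of these data known. Alternatives were stronger peaks, equal list lengths, other overlaps, libraries left out and pairing by replicate number. P-values cover the spread between these libraries.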

Additional observations from a re-analysis of the deposited data

How the results depend on the processing

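When peaks under the median fold enrichment over all lists were dropped, 13 transcription factor genes were called in any library and 1, GT-2, in more than 1. With every list shortened to the 108 strongest peaks, 9 were called and 1 in more than 1. Under either setting the counts gained in AC Br+6, lost in Nr O, called in Nr G and not AC MG, and called in AC Br+6 and not Nr O became 0, since at least 1 of the peaks behind each call was dropped. Leaving out both of the longest lists, a choice made after seeing the data, gave 14 genes, with 0 gained in AC Br+6 and 0 called in AC Br+6 and not Nr O, while 2 were still called in Nr G and not AC MG. Leaving out 1 library at a time gave 17 to 25 genes called and 4 to 5 in more than 1. Members gained in AC Br+6 and members called in AC Br+6 and not Nr O then ran from 0 to 1, and members lost in Nr O and members called in Nr G and not AC MG from 0 to 3. The falls to 0 follow from the rule of 2 libraries, since each such member was called in exactly 2 libraries of its group. The count of genes with the same site in all their libraries was 4, and became 2 with a 50% overlap of both peaks and 0 with identical ends. The mean share of described genes, 1.89%, moved by less than the spread between replicates under every alternative tried (1.67% to 2.06%). With lists of equal length, genes of all kinds lost in Nr O went from 53 to 9 and those gained from 5 to 34. The shortening drops weaker peaks, and more of them from the longer lists, so it is not a neutral check. The exact tests called 0 genes under each alternative run, with 0 to 3 genes at an unadjusted p under 0.05 for stage and 0 to 6 for genotype, but with so few libraries they say nothing about stability. With the replicate number as a block, an exact sign test over 6 pairs called 0 genes for stage and 0 for genotype, with lowest p 0.125 and 0.0625. The lowest p that 6 pairs allow is too high for a single gene to pass adjustment, so this result does not show stability. The replicate numbers were not shown to pair the libraries, as correlations of same-numbered libraries ran from -0.067 to 0.072. List length limits all counts.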
